A study of Mus musculus with 16 samples.

Results

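Skeletal muscle genes in whole dorsal skin of mice were followed here across genotype and UVB. The 39 genes are a list of symbols, chosen, with earlier results of these data known, for what they encode in the sarcomere (the contractile unit of striated muscle), in calcium handling, in energy supply or in muscle regulation, and each was matched to the versioned Ensembl identifier of the count files. They are 39 of 55359 gene IDs in the files, and all 39 passed the filter on low counts that left 17531 genes for testing. Skin was labelled as dorsal, from male mice aged 8 weeks with skin in telogen (resting hair follicles). Mice that lacked both TNF receptor genes (labelled Tnfrsf1a/b KO) with 3xUVB (KO UVB) or with no UVB (KO control) were studied beside wild-type mice with 3xUVB (WT UVB) or with no UVB (WT control). Each of the 4 groups held 4 poly(A)-selected, strand-specific RNA-seq libraries. The dose and timing of UVB, the strain, the targeted exons and the depth to which skin was cut are not given by the sources at hand. By its title, the series is about melanocyte stem cells of UVB-exposed skin when TNF signalling is missing, and muscle is part of the tissue that was sequenced with them.

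Under the dermis and fat of mouse back skin lies the panniculus carnosus, a thin sheet of striated muscle that moves the skin. In such muscle, myosin of the thick filament pulls on actin of the thin filament once calcium has bound to troponin, giant proteins hold both filaments in register, and Z-discs anchor them. An action potential opens calcium release at the triad, where the voltage sensor of the membrane faces the release channel of the sarcoplasmic reticulum, and a calcium pump then returns the calcium. Fibres differ in the isoforms they make: Myh4 encodes the myosin heavy chain of the fastest (IIb) fibres, Myh1 that of fast IIx fibres and Myh2 that of fast IIa fibres, and slow fibres use their own troponins. The work of these fibres draws on creatine kinase, glycogen breakdown and glycolysis.

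Promoter sequences of 4 genes are shown because the results below turn on how the levels of fast myosins, of Ckm and of a slow troponin moved. Each is the 250 bases before the RefSeq start of the gene, written 5′ to 3′ along the gene's strand on build GRCm38.p6. Capitals mark the letters CAGCTG, or CACCTG on either strand, both of them E-boxes of the kind that MyoD-family factors bind, and TATAAA on either strand. Myh4 and Myh1 neighbour each other on chromosome 11, at chr11:67237562-67237811 (plus strand) and chr11:67199852-67200101 (plus strand), Ckm lies at chr7:19410844-19411093 (plus strand) and Tnnt1 at chr7:4515976-4516225 (minus strand).
Myh4: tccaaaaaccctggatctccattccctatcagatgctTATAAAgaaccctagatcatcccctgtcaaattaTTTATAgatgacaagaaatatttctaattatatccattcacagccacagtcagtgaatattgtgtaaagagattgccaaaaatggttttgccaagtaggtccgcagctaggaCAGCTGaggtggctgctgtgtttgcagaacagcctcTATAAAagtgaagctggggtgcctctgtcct
Myh1: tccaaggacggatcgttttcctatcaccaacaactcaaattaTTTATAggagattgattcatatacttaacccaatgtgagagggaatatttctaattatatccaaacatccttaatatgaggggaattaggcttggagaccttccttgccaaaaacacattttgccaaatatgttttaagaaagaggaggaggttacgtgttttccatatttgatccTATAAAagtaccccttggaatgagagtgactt
Ckm: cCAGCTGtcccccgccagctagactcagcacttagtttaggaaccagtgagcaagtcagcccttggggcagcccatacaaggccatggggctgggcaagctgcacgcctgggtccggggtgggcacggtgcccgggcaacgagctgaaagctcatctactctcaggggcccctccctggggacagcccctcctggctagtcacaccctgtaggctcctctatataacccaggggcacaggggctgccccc
Tnnt1: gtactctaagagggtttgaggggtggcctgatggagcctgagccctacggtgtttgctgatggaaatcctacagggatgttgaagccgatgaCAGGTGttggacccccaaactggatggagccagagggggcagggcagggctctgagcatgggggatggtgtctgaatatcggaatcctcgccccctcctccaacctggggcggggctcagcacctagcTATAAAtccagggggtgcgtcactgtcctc

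The Myh4 window held CAGCTG 67 bases before the start and TATAAA 31, 179 and 213 bases before it. The Myh1 window held TATAAA 32 and 208 bases before the start and no CAGCTG. In Ckm, CAGCTG began 249 bases before the start, and in Tnnt1 there was CACCTG at 158 and TATAAA at 30 bases. RefSeq promoter windows were found for 29 of the 39 genes, 34 windows in all. CAGCTG was in 17 of these 34 windows (50%), from 15 genes, and in 13.0% of all 32851 windows of that length. CACCTG was in 6 member windows (17.6%) and in 17.2% of all windows, and TATAAA was in 6 (17.6%) and in 12.4% of all. The MEF2 motif was in 2 member windows (5.88%), those of Ttn and Xirp2, and in 0.508% of all windows. These are counts of letters in a window and do not show that a factor binds there.

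Libraries held 15644375 to 23200649 reads in genes. Transcripts of the targeted genes were present at a lower level in KO skin. Tnfrsf1a (TNF receptor 1) was at 95.8 ± 6.78 CPM (normalised counts scaled to library size) in KO UVB and 85.9 ± 5.42 in KO control skin, against 151 ± 8.87 in WT UVB and 143 ± 6.67 in WT control skin (SD, n = 4 each). Tnfrsf1b (TNF receptor 2) was at 20.1 ± 5.54 CPM in KO UVB and 20.8 ± 4.17 in KO control skin, against 40.9 ± 7.99 in WT UVB and 57.8 ± 13.4 in WT control skin. Both were called lower in KO without UVB, by -0.74 ± 0.07 (adjusted p = 5.43e-05) and -1.47 ± 0.21 (adjusted p = 0.00206), and with UVB, by -0.66 ± 0.07 (adjusted p = 0.000152) and -1.02 ± 0.21 (adjusted p = 0.0315), as log2 fold changes ± SE from edgeR's quasi-likelihood test. Nothing in the labels says that libraries of a group came from separate mice, and p-values then cover only sample-to-sample spread, which may be technical. The telogen label was set beside anagen (growing) hair follicle markers, whose summed level was 10.9 to 23.0 CPM in KO UVB and 82.4 to 312 CPM in KO control libraries, and 16.9 to 181 CPM in WT UVB and 1190 to 3029 CPM in WT control libraries. The WT control libraries, which stood highest, thus go against their telogen label, and the groups differed in these markers. A change in a bulk sample can mean fewer cells of a type or less RNA per cell, and these cannot be told apart.

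Muscle transcripts took a sizeable and uneven part of each skin library. The 39 genes held 1.92, 2.52, 2.45 and 2.97% of the reads in the KO UVB libraries 1 to 4, and 6.18, 4.07, 4.16 and 4.69% in KO control libraries. They held 3.81, 3.16, 3.67 and 2.65% in WT UVB libraries, and 3.65, 4.46, 3.42 and 4.15% in WT control libraries. The lowest library was KO UVB 1 (95% Wilson interval 1.92 to 1.93%) and the highest KO control 1 (6.17 to 6.19%), and these intervals cover counting error only. As summed CPM, muscle came to 25783 ± 4480.5 in KO UVB and 47648 ± 11087 in KO control skin, and to 33699 ± 5605 in WT UVB and 37344 ± 4749 in WT control skin (SD, n = 4 each). Every KO UVB library (20497 to 31391 CPM) lay below every KO control library (39088 to 63333 CPM), while WT UVB (26615 to 38521 CPM) and WT control (33043 to 43286 CPM) overlapped. The ratio of group means was 0.541 for KO UVB over KO control (0.608 without KO control library 1), 0.902 for WT UVB over WT control, 1.28 for KO control over WT control and 0.765 for KO UVB over WT UVB. The ratio of 1.28 includes KO control library 1, and the genotypes overlapped both with and without UVB.

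**Figure D1:**
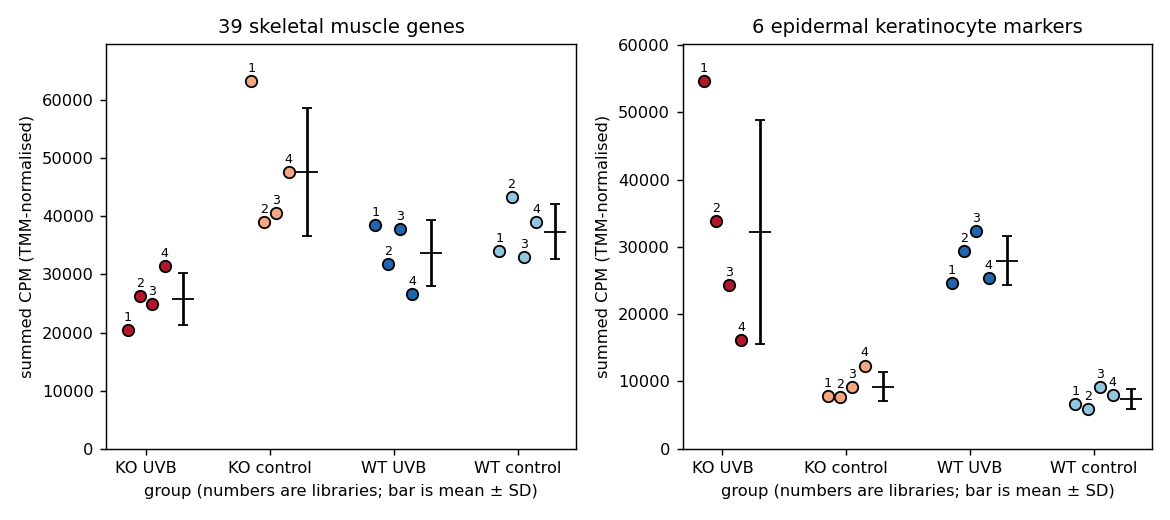
Summed CPM (TMM-normalised) of the 39 skeletal muscle genes (left) and of 6 epidermal keratinocyte markers (right) in each library, with the group on the x axis, 1 point per library marked with its number and a bar at the mean ± SD. For the muscle genes, all KO UVB libraries lie below all KO control libraries, and WT UVB and WT control libraries overlap. Within KO UVB skin the library lowest in muscle, library 1, is the highest in keratinocyte markers, and so is library 3 within WT control skin. Within KO control skin library 2 is the lowest in both.

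Among the 39 genes, 5 held 53.2% of the summed CPM, averaged over the libraries. These were Acta1 (skeletal alpha-actin, 13.2%), Myh1 (11.9%), Myh4 (10.9%), Atp2a1 (the fast calcium pump SERCA1, 10.7%) and Ttn (titin, 6.59%). Per kilobase of exon, which allows levels of different genes to be compared, Acta1 stood highest at 3102 CPM per kb, followed by the fast troponin genes Tnnt3 (1209) and Tnnc2 (1183) and by Atp2a1 (1107). On the same per-kilobase scale the fast myosins Myh1 (676) and Myh4 (654) had similar means over the 16 libraries and Myh2 was at 39.2. By group their order differed: Myh1 and Myh4 were at 439 and 490.2 CPM per kb in KO UVB and at 675 and 1123 in KO control skin, and at 929 and 221 in WT UVB and 659 and 783 in WT control skin. Titin, the longest of these transcripts, was at 20.4 CPM per kb. Slow troponins were the lowest of the contractile genes, with Tnnt1 at 2.55, Tnnc1 at 0.473 and Tnni1 at 0.224 CPM per kb. Fast troponin genes thus stood above their slow counterparts per kilobase. Tnni1 had 4 to 55 reads per library, Tnnc1 2 to 21, Tnnt1 16 to 409 and Myod1, a master regulator of the muscle lineage, 19 to 113, so that their values carry the largest counting error.

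After UVB in KO skin, most of the listed muscle transcripts fell. Of the 39 genes, 25 fell and 0 rose at an adjusted p under 0.05 (edgeR's quasi-likelihood test, Benjamini-Hochberg over all genes), where 32.3% of all tested genes were called, 17.2% higher and 15.1% lower. The median log2 fold change of the 39 was -0.82, which is 0.566-fold, beside -0.02 over all genes, and the values ran from -1.86 to -0.01. The groups did not overlap for 20 of the 39, all lower in KO UVB, and 11.5% of all genes had such a lower, non-overlapping pattern. Of the 25 calls, 9 exceeded 2-fold. DESeq2 called 29 of the 39 lower (34.7% of all genes called) and limma voom 23 (42.8%).

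**Figure D2:**
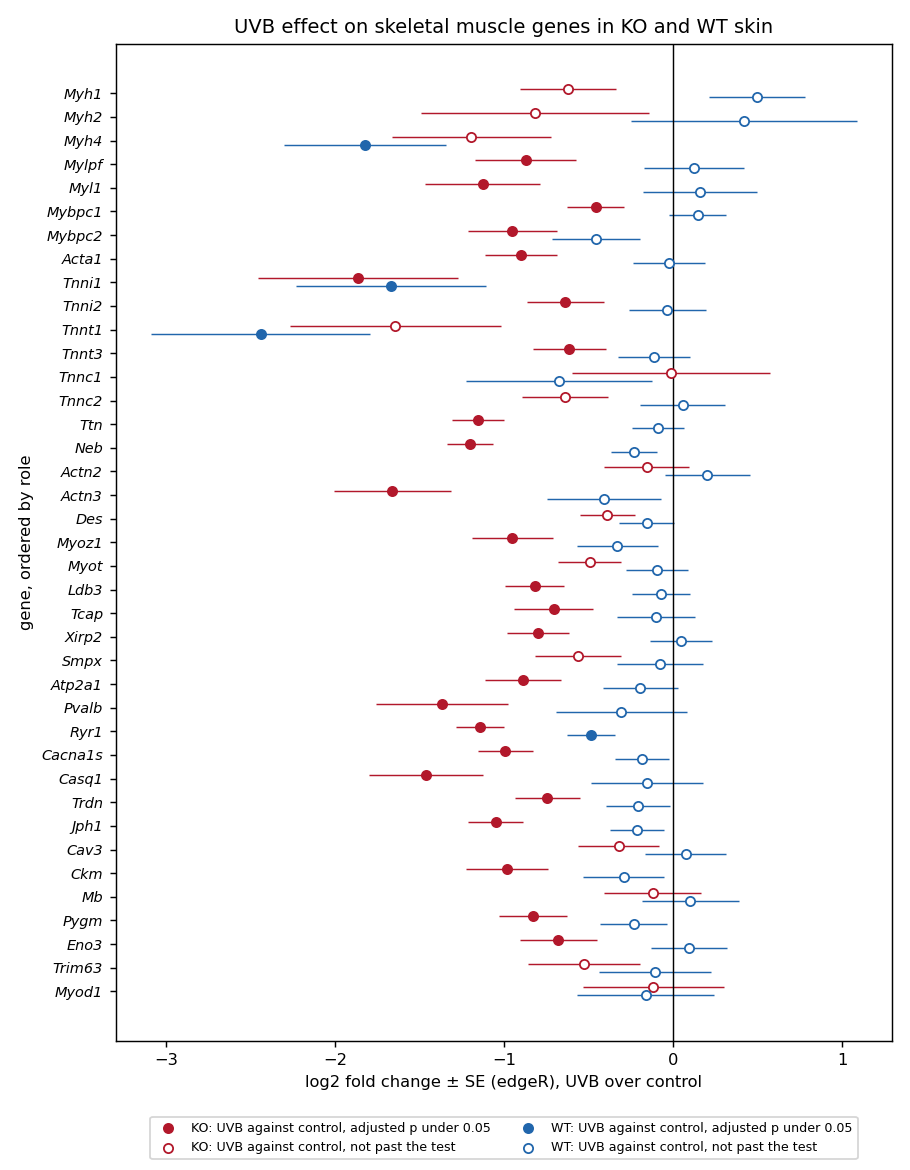
Log2 fold change (x axis) of each of the 39 genes (y axis, grouped by role) after UVB, in KO (KO UVB over KO control) and in WT (WT UVB over WT control), with bars of 1 SE and filled points at an adjusted p under 0.05. KO values lie below 0 for every gene, with 25 filled, while 11 of the 39 WT values are above 0 and 4 are filled.

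Both giant scaffold genes fell, with adjusted p among the smallest of the list. Neb (nebulin, which runs along the thin filament, ENSMUSG00000026950.19) stood at 693, 752, 786 and 670 CPM in KO UVB libraries and at 1915, 1564, 1797 and 1396 CPM in KO control libraries. All KO UVB libraries lay below all KO control libraries. Its log2 fold change was -1.20 ± 0.14 (adjusted p = 3.5e-05). Ttn (titin, the spring that links Z-disc to M-line, ENSMUSG00000051747.16) was at 1295, 1573, 1453 and 1564 CPM in KO UVB libraries and at 2804 to 3675 CPM in KO control libraries. It fell by 1.16 ± 0.15 on the log2 scale (adjusted p = 0.000113), and both genes were even within KO UVB skin, their libraries lying closer together than those of KO control skin.

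Of the 7 thick filament genes 4 fell in KO skin after UVB, with a median of -0.87. The fast light chains Mylpf (-0.87 ± 0.30, adjusted p = 0.0353) and Myl1 (-1.13 ± 0.34, adjusted p = 0.0201) and the myosin-binding proteins Mybpc2 of fast fibres (-0.95 ± 0.26, adjusted p = 0.0123) and Mybpc1 (-0.46 ± 0.17, adjusted p = 0.0461) passed the test. Myl1 stood at 386, 469, 347 and 665 CPM in KO UVB libraries and at 1833, 566, 816 and 862 CPM in KO control libraries, so that KO UVB library 4 reached into the control range. None of the 3 heavy chains passed: Myh4 gave -1.20 ± 0.47 (adjusted p = 0.0639), Myh1 -0.62 ± 0.28 (0.104) and Myh2 -0.82 ± 0.67 (0.374). Heavy chain genes are near copies of one another in places: of the 75-base windows of the longest annotated transcripts, 16.6% of Myh1, 16.3% of Myh2 and 9.68% of Myh4 also occur in another annotated transcript, and 16.6% of Myl1 occur in a pseudogene, so the authors' counting could leave such reads out.

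In the thin filament 4 of 7 genes fell, with a median of -0.64. Acta1 (ENSMUSG00000031972.6) was at 2625, 3195, 3500 and 4528 CPM in KO UVB libraries and at 8092, 5256, 5179 and 7290 CPM in KO control libraries, with no overlap. Its log2 fold change was -0.90 ± 0.21 (adjusted p = 0.00512). The fast troponin genes Tnni2 (inhibitory subunit, -0.64 ± 0.23, adjusted p = 0.0429) and Tnnt3 (tropomyosin-binding subunit, -0.61 ± 0.22, adjusted p = 0.0391) fell, and the fast calcium-binding subunit Tnnc2 gave -0.64 ± 0.25 (adjusted p = 0.0664). The slow subunit Tnni1 fell by 1.86 ± 0.59 on the log2 scale (adjusted p = 0.025) on 4 to 10 reads per KO UVB library and 6 to 55 per KO control library. That value was the lowest of the list and depends on KO control library 1, without which it was -0.97. Slow Tnnt1 gave -1.64 ± 0.62 (adjusted p = 0.055) and slow Tnnc1, at 2 to 21 reads, -0.01 ± 0.59.

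Among 9 genes of the Z-disc and its linkers 5 fell, with a median of -0.71. Actn3, the alpha-actinin of fast fibres (ENSMUSG00000006457.5), was at 121, 208, 195 and 276 CPM in KO UVB libraries and at 1125, 513, 474 and 424 CPM in KO control libraries. It fell by 1.66 ± 0.35 on the log2 scale (adjusted p = 0.00241). Its relative Actn2 moved little: Actn2 stood at 555, 352, 287 and 245 CPM in KO UVB libraries and at 507, 266, 382 and 449 CPM in KO control libraries, a log2 fold change of -0.16 ± 0.25 (adjusted p = 0.668). Also lower were Ldb3, which binds alpha-actinin at the Z-disc (-0.82 ± 0.17, adjusted p = 0.00239), Xirp2, an actin-binding repeat protein (-0.80 ± 0.18, adjusted p = 0.0043), Myoz1, which tethers calcineurin (-0.95 ± 0.24, adjusted p = 0.00739), and Tcap, the cap of titin (-0.71 ± 0.23, adjusted p = 0.0288). The intermediate filament gene Des (-0.39 ± 0.16, adjusted p = 0.0799), Myot (-0.49 ± 0.19, adjusted p = 0.0524) and Smpx (-0.56 ± 0.26, adjusted p = 0.105) did not pass. Desmin is also made by smooth muscle.

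Among 8 genes of excitation and calcium handling 7 fell, with a median of -1.02. Ryr1, the calcium release channel (ENSMUSG00000030592.19), was at 420, 473, 423 and 423 CPM in KO UVB libraries and at 1097, 925, 950 and 868 CPM in KO control libraries. It fell by 1.14 ± 0.14 on the log2 scale (adjusted p = 6.76e-05). The voltage sensor Cacna1s fell by 0.99 ± 0.16 (adjusted p = 0.000448), and Jph1, which holds the membranes of the triad together, by 1.05 ± 0.16 (adjusted p = 0.000339). Transcripts of the proteins that store, buffer and pump calcium were lower too. Casq1, the calcium store of fast fibres, was at 108, 129, 153 and 233 CPM in KO UVB libraries and at 769, 318, 286 and 344 CPM in KO control libraries (-1.46 ± 0.34, adjusted p = 0.00455). Pvalb, the calcium buffer parvalbumin, was at 159, 271, 323 and 618 CPM in KO UVB libraries and at 1581, 580, 618 and 759 CPM in KO control libraries (-1.37 ± 0.39, adjusted p = 0.0152). Atp2a1 (-0.89 ± 0.22, adjusted p = 0.00727) and Trdn, which links calsequestrin to the release channel (-0.74 ± 0.19, adjusted p = 0.0084), fell as well, and Cav3, the caveolin of muscle membranes, gave -0.32 ± 0.24 (adjusted p = 0.314).

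Of the genes of energy and oxygen supply 3 of 4 fell. Ckm, muscle creatine kinase (ENSMUSG00000030399.3), was at 868, 1245, 1170 and 1707 CPM in KO UVB libraries and at 3486, 1956, 1913 and 2521 CPM in KO control libraries (-0.98 ± 0.24, adjusted p = 0.00639). Pygm, which breaks down muscle glycogen, fell by 0.83 ± 0.20 on the log2 scale (adjusted p = 0.00552) and the muscle enolase Eno3 by 0.68 ± 0.23 (adjusted p = 0.032). Mb, the oxygen carrier myoglobin, overlapped fully: it was at 334, 316, 369 and 510 CPM in KO UVB libraries and at 454, 196, 416 and 600 CPM in KO control libraries (-0.12 ± 0.29, adjusted p = 0.774). Neither regulator passed, Trim63, a ubiquitin ligase of muscle protein breakdown, at -0.53 ± 0.33 (adjusted p = 0.24) and Myod1 at -0.12 ± 0.42 (adjusted p = 0.857). By isoform, 10 of 14 fast-fibre genes fell with a median of -0.92, and 1 of 3 slow-fibre genes with a median of -1.64.

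Of these 25 calls, 16 held under the other tools, scalings, filters and sample choices tried, apart from scaling to the muscle reads, and with each library left out in turn. They were Mybpc2, Acta1, Ttn, Neb, Actn3, Myoz1, Ldb3, Xirp2, Atp2a1, Ryr1, Cacna1s, Casq1, Trdn, Jph1, Ckm and Pygm. The count fell to 16 without KO control library 1, the library richest in muscle, where Mylpf, Myl1, Mybpc1, Tnni1, Tnni2, Tnnt3, Tcap, Pvalb and Eno3 missed the threshold (adjusted p 0.0570 to 0.148). Leaving out KO UVB library 1, 2 or 3 ended 7 calls each, KO control library 4 ended 6 and KO UVB library 4 ended 2, all among those 9 genes. Mybpc1 also ended without KO control library 3, WT UVB library 1 or 2, or WT control library 2 or 4, and Tnni2 without WT control library 3 or 4, at adjusted p of 0.0502 to 0.0585.

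Other genes of muscle were kept in lists apart from the 39, likewise chosen with earlier results known. They were also more often lower than higher in KO UVB against KO control skin, where 15.1% of all tested genes were called lower and 17.2% higher. Of 35 tested sarcomere and Z-disc genes 20 fell and 0 rose (median -0.66), led by Myoz3, a Z-disc calsarcin (17.7 ± 1.41 against 44.1 ± 10.1 CPM, -1.32 ± 0.17, adjusted p = 7.02e-05). Of 17 further excitation and calcium genes 13 fell and 0 rose (median -0.68), among them the sodium channel Scn4a (-0.91 ± 0.16, adjusted p = 0.000731), the calcium channel subunit Cacna2d1 (-0.82 ± 0.15, adjusted p = 0.000988) and the junctophilin Jph2 (-1.25 ± 0.23, adjusted p = 0.00114). At the neuromuscular junction 6 of 9 genes fell and 0 rose (median -0.70). Ache, which clears acetylcholine from the synapse, was at 13.5 ± 2.66 CPM in KO UVB and 31.5 ± 3.49 in KO control skin (-1.22 ± 0.13, adjusted p = 2.92e-05), and its collagen anchor Colq fell by 1.96 ± 0.25 on the log2 scale (adjusted p = 7.68e-05). The acetylcholine receptor subunit Chrnd also fell (-1.60 ± 0.37, adjusted p = 0.00419).

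Energy genes outside the 39 fell in 10 of 21 cases (median -0.57), with the muscle elongation factor Eef1a2 (-0.74 ± 0.18, adjusted p = 0.00551) and adenylate kinase Ak1 (-0.89 ± 0.22, adjusted p = 0.00676). Aldoa, the most abundant of that list and widely expressed, gave -0.36 ± 0.19 (adjusted p = 0.161). Genes of the muscle membrane and the dystrophin complex fell in 10 of 15 cases (median -0.54). Dmd, which encodes dystrophin, was at 50.2 ± 2.95 CPM in KO UVB and 84.1 ± 7.38 in KO control skin (-0.74 ± 0.09, adjusted p = 5.29e-05), and the sarcoglycan Sgcd fell by 0.95 ± 0.16 (adjusted p = 0.000566). Myogenic regulators and satellite cell genes fell in 6 of 13 cases (median -0.59), with the factors Mef2c (-0.61 ± 0.10, adjusted p = 0.000376), Six4 (-1.04 ± 0.21, adjusted p = 0.0022) and Pax3 (-0.81 ± 0.24, adjusted p = 0.0175; 0.0566 without KO control library 1). These factors can also be expressed by other cells of skin. The list of atrophy and turnover genes did not share the direction: 3 of 15 rose and 3 fell (median -0.12). Of all tested genes, 17.2% rose and 15.1% fell in the same comparison. Ctsl, a lysosomal protease that many cells make, was at 678 ± 87.8 CPM in KO UVB and 399 ± 50.1 in KO control skin (0.76 ± 0.11, adjusted p = 0.000203), and Ampd3, AMP deaminase, rose by 0.41 ± 0.09 (adjusted p = 0.00325). Mstn, the muscle growth inhibitor myostatin, was at 53.0 ± 21.6 CPM in KO UVB and 151 ± 33.0 in KO control skin (-1.52 ± 0.35, adjusted p = 0.00456). Without KO control library 1, the calls that fell were 13 in the sarcomere, 9 in the excitation, 5 in the junction, 3 in the energy, 6 in the membrane and 2 in the myogenic list, with medians of -0.58 to -0.33.

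**Figure D3:**
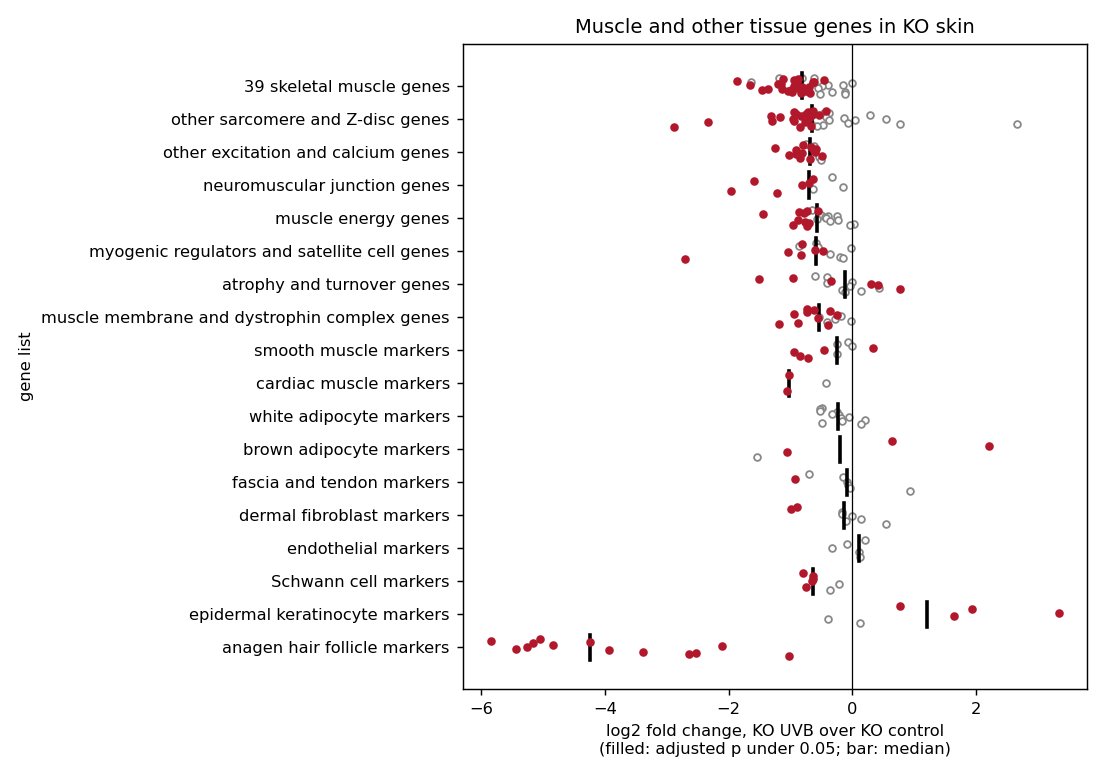
Log2 fold change of KO UVB over KO control skin (x axis) for each tested gene of the muscle lists and of marker lists of other cell types (y axis), with 1 point per gene, filled at an adjusted p under 0.05, and a bar at each list's median. Medians of the sarcomere, excitation, junction, energy, membrane and myogenic lists lie between -0.70 and -0.54, epidermal keratinocyte markers at 1.21 and anagen markers at -4.25.

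Markers of other tissues in the piece moved beside muscle, and their part in the muscle differences was not tested. Of all tested genes, 17.2% were called higher in KO UVB against KO control skin and 15.1% lower. Of 6 epidermal keratinocyte markers 4 rose in KO UVB against KO control skin (median 1.21), and their summed level was 16137 to 54683 CPM in KO UVB and 7630 to 12376 CPM in KO control skin. KO UVB library 1, lowest in muscle, was highest in these markers (54683 CPM), and KO UVB library 4, highest in muscle of its group, was lowest (16137 CPM). WT control library 3, lowest of its group in muscle, was also highest in them (9166 CPM). In contrast, KO control library 2 was lowest of its group in both (39088 CPM of muscle, 7630 CPM of these markers). WT UVB library 3 was highest of its group in these markers (32355 CPM) and stood at 37852 CPM of muscle, where that group ran from 26615 to 38521 CPM. All 13 anagen hair follicle markers fell in KO UVB against KO control skin (median -4.25), as they did in WT skin after UVB. Dermal fibroblast markers summed to 31936 to 41357 CPM in KO UVB and 55301 to 59433 CPM in KO control skin, with 2 of 8 lower (median -0.13), and Schwann cell markers fell in 5 of 7 cases (median -0.64). White adipocyte markers had 0 of 12 called (median -0.24; 2553 to 6313 CPM in KO UVB, 4452.5 to 5330 CPM in KO control skin), and endothelial markers had 0 of 5 (median 0.10). Without KO UVB library 4, 4 of the 12 white adipocyte markers were called lower (median -0.55). Smooth muscle markers fell in 4 of 9 cases and rose in 1 (median -0.26), at 447 to 569 CPM in KO UVB and 552 to 623 CPM in KO control skin, and fascia and tendon markers fell in 1 of 7. Brown adipocyte markers rose in 2 and fell in 1 of 4. Ucp1 of that list had 21 reads in all 16 libraries together, and the calls were of other genes in the list. Of the 3 heart muscle markers that passed the filter 2 fell (median -1.03), and the defining heart genes were near 0, with 6 reads of Myh6 and 1 of Nppa in all 16 libraries together.

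In WT skin the same UVB label went with few differences in muscle. Of the 39 genes 4 fell and 0 rose, where 18.8% of all genes were called, 10.2% higher and 8.6% lower, and the median was -0.11 beside -0.03 over all genes. The 4 were Myh4, Tnni1, Tnnt1 and Ryr1, and of the 39 only Tnni1 did not overlap between the groups, lower in WT UVB (13.1% of all genes). DESeq2 (22% of all genes called) and limma voom (29.1%) each called 4 lower as well. Myh4 (ENSMUSG00000057003.13) was at 2299, 1241, 989 and 800 CPM in WT UVB libraries and at 6374, 6273, 947 and 5237 CPM in WT control libraries, so that WT control library 3 lay within the UVB range. Its log2 fold change was -1.82 ± 0.48 (adjusted p = 0.016), which missed the threshold without WT control library 1 (0.0525) or WT UVB library 3 (0.0530) or 4 (0.0532). Slow Tnnt1 was at 3.92, 0.854, 1.36 and 0.889 CPM in WT UVB libraries and at 9.39, 19.1, 3.32 and 7.12 CPM in WT control libraries (-2.44 ± 0.65, adjusted p = 0.0168), and slow Tnni1 fell by 1.67 ± 0.56 on the log2 scale (adjusted p = 0.0489) on 6 to 10 reads per WT UVB library. Ryr1 was at 658, 628, 491 and 473 CPM in WT UVB libraries and at 883, 891, 590 and 792 CPM in WT control libraries (-0.49 ± 0.14, adjusted p = 0.0256). Each of these calls ended without some library: the count of 4 became 0 without WT UVB library 3 or 4, 1 without WT control library 1 or 2, and 2 without WT UVB library 2 or WT control library 4. Tnni1 also missed the threshold without WT UVB library 1, WT control library 3, KO control library 3 or any 1 KO UVB library, at adjusted p of 0.0509 to 0.0813.

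Most muscle genes overlapped between WT UVB and WT control skin. Acta1 was at 5291, 3860, 5412 and 3563 CPM in WT UVB libraries and at 3768, 5367, 4139 and 5176 CPM in WT control libraries (-0.03 ± 0.21, adjusted p = 0.947). Ttn (-0.09 ± 0.15), Neb (-0.23 ± 0.13) and Ckm (-0.29 ± 0.24) did not pass either, and 11 of the 39 values were above 0, among them Myh1 at 0.50 ± 0.28 (adjusted p = 0.235). In the other muscle lists, 3 of 35 sarcomere genes, 1 of 9 junction genes (Colq, -0.82, adjusted p = 0.0287), 1 of 15 membrane genes (Dmd, -0.27, adjusted p = 0.0455), 1 of 13 myogenic genes and 0 of 17 excitation genes fell. Of all tested genes, 8.6% were called lower in WT UVB against WT control skin. Keratinocyte markers rose in 4 of 6 cases in WT too (median 1.26), with a summed level of 24638 to 32355 CPM in WT UVB and 5935 to 9166 CPM in WT control skin. All 13 anagen markers (median -5.28), all 7 Schwann cell markers (median -0.78) and 4 of 9 smooth muscle markers (median -0.39) also fell in WT UVB against WT control skin. The median was -0.41 for white adipocyte, -0.09 for dermal fibroblast and -0.12 for endothelial markers there.

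The 2 genotypes were then compared directly. Between KO control and WT control skin, edgeR called 0 of the 39 genes (2 by DESeq2, 1 by limma voom), where 1.69% of all genes were called by edgeR. The median was 0.30 and 34 of 39 values were above 0. Neb, Ttn and Xirp2 were higher in all KO control libraries than in any WT control library, and 3.05% of all genes had such a higher, non-overlapping pattern. Xirp2 was at 946, 577, 729 and 766 CPM in KO control libraries and at 372, 542, 481 and 490 CPM in WT control libraries (0.68 ± 0.18, adjusted p = 0.0886), which did not pass. Neb was at 1396 to 1915 CPM in KO control and 1097 to 1323 CPM in WT control libraries (0.45 ± 0.13, adjusted p = 0.142), and Ttn at 2804 to 3675 CPM in KO control and 2286 to 2633 CPM in WT control libraries (0.41 ± 0.15, adjusted p = 0.281). DESeq2 called Neb and Xirp2 (2.58% of all genes) and limma voom Xirp2 (3.37%). In the same comparison 10 of 13 anagen markers were called lower in KO control skin (median -3.13), and their part in the muscle values was not tested.

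Between KO UVB and WT UVB skin most values lay on the other side of 0, again without a call by edgeR. EdgeR called 0 of the 39 genes (4 by DESeq2, 3 by limma voom), where 0.856% of all genes were called by edgeR, and the median was -0.33 with 35 of 39 values below 0. Myh1, Ttn and Neb were lower in all KO UVB libraries than in any WT UVB library, Ryr1 was all but tied at the border (473 CPM in KO UVB library 2 and in WT UVB library 4), and 3.89% of all genes had such a lower, non-overlapping pattern. Myh1 (ENSMUSG00000056328.15) was at 2680, 2962, 2945 and 2576 CPM in KO UVB libraries and at 5633, 6014, 7077 and 4876 CPM in WT UVB libraries (-1.08 ± 0.28, adjusted p = 0.0798). Ttn (-0.65 ± 0.15, adjusted p = 0.0591) was at 1295 to 1573 CPM in KO UVB and 1774 to 2923 CPM in WT UVB libraries, and Neb gave -0.52 ± 0.13 (adjusted p = 0.0771). DESeq2 called Myh1, Ttn, Neb and Jph1 lower (3.76% of all genes), and limma voom called Myh1, Ttn and Neb (6.24%). The anagen markers had a median of -1.99 here.

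Whether the UVB difference itself differed between the genotypes was asked by the interaction (KO UVB effect minus WT UVB effect). EdgeR called 0 of the 39 genes (3 by DESeq2, 3 by limma voom), and it called 0.0228% of all genes. The median was -0.62 and 35 of 39 values were below 0. The smallest adjusted p among the 39 were those of Neb (-0.97 ± 0.19, adjusted p = 0.0826) and Ttn (-1.07 ± 0.22, adjusted p = 0.0869). DESeq2 called Ttn, Neb (adjusted p = 0.000200 for each) and Jph1 (0.0455), beside 1.31% of all genes, and limma voom called Neb (0.0203), Ttn (0.0231) and Xirp2 (0.0287), beside 2.5% of all genes. The count of 25 in KO against 4 in WT is thus not by itself a tested difference, and the test of that difference called these few genes with DESeq2 and limma voom and none with edgeR. These 5 comparisons share groups of libraries, and their values are not independent of each other.

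**Figure D4:**
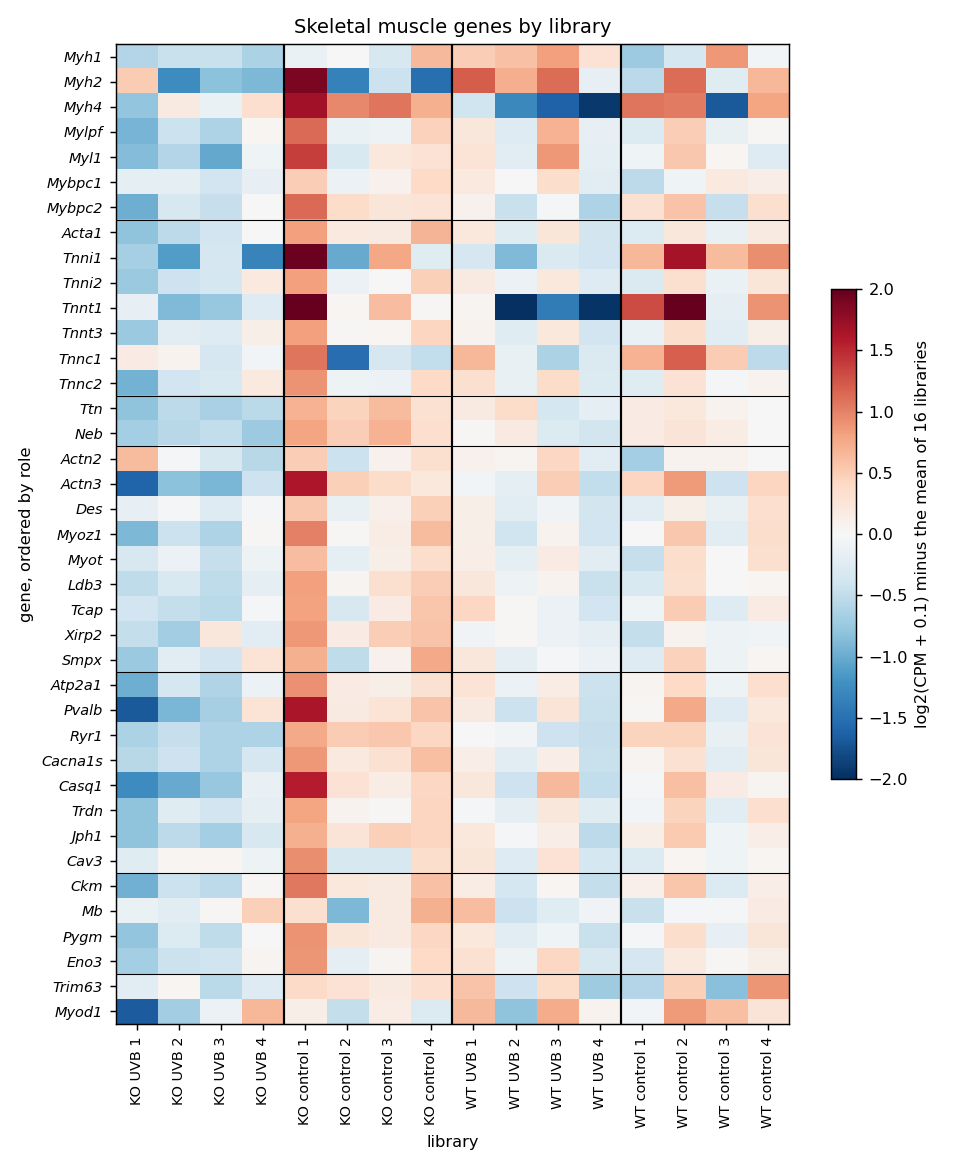
Level of each of the 39 genes (rows, grouped by role) in each of the 16 libraries (columns, by group), as the difference of log2(CPM + 0.1) from the gene's mean over all libraries, with the colour scale limited at 2 in either direction. KO UVB libraries are low and KO control library 1 is high for most genes, and Myh4 is low in the WT UVB libraries and in WT control library 3.

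Within a group, most of the genes varied together from library to library. The median coefficient of variation over the 39 genes was 23.8% in KO UVB, 30.6% in KO control, 21.1% in WT UVB and 21.2% in WT control skin. KO control library 1 was the highest of its group for 35 of 39 genes, and WT control library 2 for 32. KO UVB library 4 was the highest of its group for 27 genes and KO UVB library 1 the lowest for 22, and WT UVB library 4 was the lowest for 29. The largest summed level of any library was 3.09 times the smallest. The values of single members, and their p-values, are therefore not independent of one another.

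Because most of the list moved with the library, genes were also compared relative to muscle, by scaling each library to the summed reads of the 39 genes, a setting chosen after seeing the data. On this scale the median of all genes shifted by 0.85 in KO UVB against KO control skin and 72.3% of all genes were called. With so many genes called through the scaling, an adjusted p over all genes is no guide here, and the values of the 39 are given as a description. Relative to the muscle sum, Actn2 was at 0.83 ± 0.27 on the log2 scale, Mb at 0.76 ± 0.25, Cav3 at 0.63 ± 0.19, Des at 0.52 ± 0.18, Mybpc1 at 0.45 ± 0.19 and Myot at 0.41 ± 0.18. On the other side of 0, Actn3 was at -0.76 ± 0.23 and Casq1 at -0.54 ± 0.22. Such values show unequal change among the genes and not which of them changed. In WT UVB against WT control skin Myh4 (-1.68, adjusted p = 0.018) and Tnnt1 (-2.30, adjusted p = 0.019) were lower on this scale, where 6.64% of all genes were called, and in KO UVB against WT UVB skin Myh4 alone was called, higher in KO (1.54, adjusted p = 0.0349; 7.02% of all genes).

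The balance of fast myosins differed widely between libraries. Myh4 made up 37.1, 53.0, 47.4 and 58.7% of the Myh1, Myh2 and Myh4 reads in KO UVB libraries and 68.5, 59.2, 65.4 and 43.8% in KO control libraries. It made up 27.2, 16.3, 11.6 and 13.6% in WT UVB libraries and 71.2, 63.4, 11.2 and 55.4% in WT control libraries. All KO UVB libraries lay above all WT UVB libraries, and WT control library 3 lay with the WT UVB libraries. Wilson intervals were narrow, from 11.1 to 11.4% in WT control library 3, from 71.0 to 71.4% in WT control library 1 and, at the widest, from 36.8 to 37.4% in KO UVB library 1, so that counting error is small beside the spread between libraries. In WT control library 3 Myh1 stood at 7307 CPM, against 2431 to 3861 CPM in the other 3, while the summed muscle level of that library was 33043 CPM, close to the 34024 CPM of WT control library 1.

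**Figure D5:**
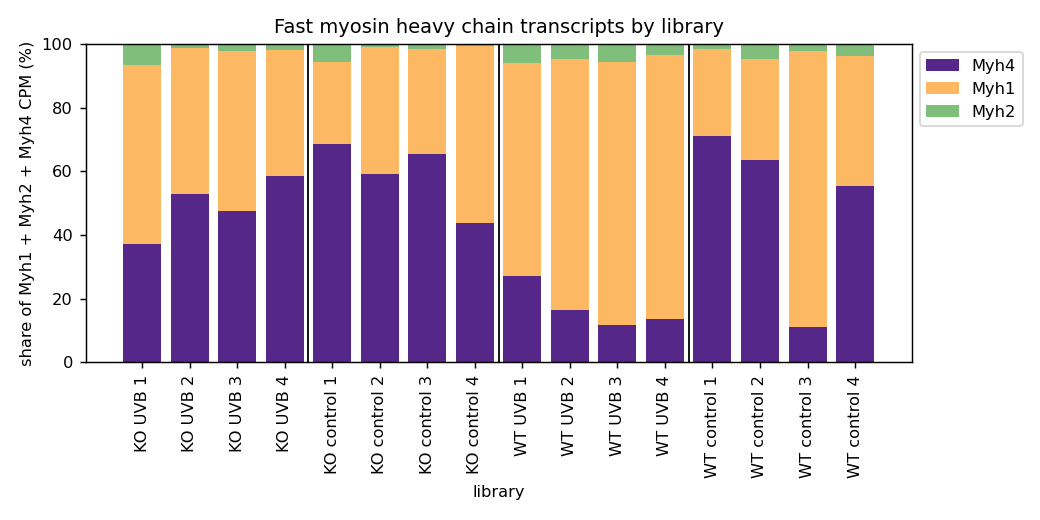
Share of Myh4, Myh1 and Myh2 in the summed CPM of these 3 fast myosin heavy chain genes (y axis, percent) in each library (x axis, by group), as stacked bars that reach 100. Myh4 holds 37.1 to 58.7% in KO UVB libraries and 11.6 to 27.2% in WT UVB libraries, and WT control library 3 holds 11.2% beside 55.4 to 71.2% in the other WT control libraries.

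The log2 ratio of Myh4 to Myh1, a measure chosen after these values were seen, averaged 0.02 ± 0.50 in KO UVB, 0.66 ± 0.75 in KO control, -2.25 ± 0.68 in WT UVB and -0.03 ± 1.98 in WT control skin (SD, n = 4 each). In KO UVB minus WT UVB skin the difference was 2.28, with a two-sided exact permutation p of 0.0286, the smallest that 4 against 4 libraries can give, and 0.114 after Benjamini-Hochberg adjustment over the 4 comparisons made. The other 3 differences, with adjusted exact permutation p-values, were -2.22 in WT UVB minus WT control (0.286), -0.63 in KO UVB minus KO control (0.305) and 0.69 in KO control minus WT control skin (0.657). None of the 4 passed after adjustment.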

How the data were processed

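Dorsal skin gave 16 RNA-seq libraries, 4 per group. Per the labels' protocols, tissue was homogenised in liquid nitrogen, RNA was taken up in Trizol, and the NEBNext Ultra II directional kit was used after poly(A) enrichment. STAR aligned the reads to GRCm39, per the submitters' processing notes. Its version and the annotation are not given in the sources used. Deposited values are raw read counts per gene in the column layout STAR writes, without a header. The reverse-strand count was used, since that strand held 95.7% of the stranded reads. The summed lines stayed out of library sizes and tests: unmapped reads (10.7 to 19.5% of each library), reads in no feature (7.25 to 10.2%) and ambiguous reads (1.18 to 1.42%), with 0 reads on the multimapping line. A combined table with 17 value columns that no header ties to samples is not used here.

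Names came from GENCODE M21 (GRCm38), which matched 52083 of 55359 IDs and left 1.23% of reads unnamed, and its merged exon lengths gave values per kilobase. Promoters came from RefSeq windows on GRCm38.p6. The tool was edgeR 4.0.16 in R 4.3.3, with filterByExpr, TMM factors (0.940 to 1.07) and the robust quasi-likelihood test, as 1 model of 4 groups and 5 contrasts, with Benjamini-Hochberg adjustment over 17531 genes. The common biological coefficient of variation was 0.18. CPM are TMM-normalised, and the standard error is the one implied by the test. Over the 24 pairs of libraries within groups, chi-square per degree of freedom was 14.1 to 149, so none was counted as a repeat of another. The test was also run on simulated counts with known changes, whose error rates are not reported here. Alternatives were DESeq2 1.42.0, limma voom 3.58.1 with sample quality weights, other scalings, other filters, unstranded counts, only the groups compared, the replicate number as a block, and leaving out each library.

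The 39 genes and all lists were chosen with earlier results of these data known. All 39 may be named. Of the 17 related lists (209 genes), a gene may be named if it is among the 3 with the smallest adjusted p of its list in KO UVB against KO control skin and passes there, or is the most abundant of its list. Myh6, Nppa and Ucp1 are named outside this rule, for their low reads, and the text says where a measure was chosen after values were seen. In the lists Adss1 was matched through a RefSeq synonym, and Aldoa by the more abundant of 2 IDs. One list gene that this rule would name is not reported here.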

Additional observations from a re-analysis of the deposited data

Results flagged for a closer look

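In 10 of 156 sets of 4 libraries (39 genes in 4 groups), 1 library stood apart from the other 3 by Dixon's criterion for 4 values at the 95% level, which chance meets in about 1 set of 20. KO control library 1, the library with the most muscle reads, accounted for 5 of them. There Myh2 was at 809 CPM (next 163), Mybpc2 at 1021 (next 599), Tnnt1 at 19.9 (next 5.80), Actn3 at 1125 (next 513) and Casq1 at 769 (next 344). In KO UVB skin Myh2 was at 310.1 CPM in library 1 (next 124), Mybpc1 at 430 in library 3 (next 491) and Ryr1 at 473 in library 2 (next 423). In WT skin, Tnnt1 was at 3.92 CPM in WT UVB library 1 (next 1.36) and Actn2 at 224 in WT control library 1 (next 362). Of the called genes among these, Actn3, Casq1, Mybpc2 and Ryr1 kept their call in KO skin without the library that stood apart, and Mybpc1 did not pass without KO UVB library 3.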

How the results depend on the processing

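Of the 29 gene calls (25 in KO, 4 in WT), each kept its direction under the other tools, scalings, filters and sample choices tried, apart from scaling to the summed muscle reads, and 100 of their 751 values no longer passed the test. The count of 25 in KO skin was 16 to 29 with 1 library left out. Of these 25 calls, 8 ended with only the groups compared, 7 with no filter, 2 with limma voom and 1 with unstranded counts. In WT skin the count of 4 was 1 without the filter on low counts, 2 when scaled to the summed muscle reads and 0 to 4 with 1 library left out. The call of Ryr1 there ended with only the groups compared, and that of Tnni1 with DESeq2 size factors in edgeR and with unstranded counts. In KO control against WT control skin 0 became 2 with DESeq2, 1 with limma voom and 0 to 1 with 1 library left out. In KO UVB against WT UVB skin 0 became 1 with library totals, with no filter, with the groups compared alone and when scaled to muscle, 4 with DESeq2, 3 with limma voom and 0 to 1 with 1 library left out. For the interaction 0 became 3 with DESeq2, 3 with limma voom, 2 with no filter and 0 to 2 with 1 library left out. Scaling to the summed muscle reads, chosen after seeing the data, gave 8 calls in KO skin: 2 of the 25 lower ones (Actn3 and Casq1) and 6 higher ones (Mybpc1, with its direction turned, and Actn2, Des, Myot, Cav3 and Mb, not called before), and these rest on an adjustment in which 72.3% of all genes were called. Among the 25, it turned 10 values above 0: Mylpf 0.0418, Mybpc1 0.45, Tnni2 0.25, Tnnt3 0.27, Ldb3 0.0776, Tcap 0.21, Xirp2 0.10, Trdn 0.15, Pygm 0.0479 and Eno3 0.22, since this scaling removes the shift of the whole list. Values of some genes outside the 25 turned above 0 as well, among them Actn2, Des, Myot, Cav3 and Mb. The causes of the other shifts were not tested. With the replicate number as a block, 20 of the 39 were called in KO, 3 in WT and 0 in each other comparison. Libraries that share a number did not pair, with correlations of their deviations of -0.403 to 0.219. Over all genes, the calls were 150 with edgeR, 658 with DESeq2 and 1094 with limma voom in KO UVB against WT UVB, 4, 212 and 438 for the interaction, 297, 452 and 590 in KO control against WT control, and 3290, 3856 and 5100 in WT skin after UVB. Counting error limits Tnni1, Tnnc1, Tnnt1 and Myod1 most.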
